A study of Mus musculus with 10 samples.

Results

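The 10 genes described here encode factors that set and keep the epithelial state, 8 of them DNA-binding transcription factors and 2 of them RNA-binding splicing factors. They are the ETS factors Elf3 and Ehf, the Grainyhead-like factors Grhl1, Grhl2 and Grhl3, the zinc finger repressors Ovol1 and Ovol2, the Krüppel-like factor Klf5, and the splicing regulators Esrp1 and Esrp2. They were taken by name, as 10 of the 47069 gene IDs counted in each tumour, and all 10 passed the filter on low counts that left 17644 genes to be tested. RNA was sequenced from 10 mouse tumours grown in the prostate of male CD-1 Nude mice, an immunodeficient strain without a normal thymus. Cells of 1 of 3 mouse prostate cancer lines had been placed in an anterior lobe. The line CP2 gave 4 tumours, CP1 gave 3 and P1 gave 3. CP1 and CP2 were each derived from a prostate tumour of a donor with a prostate-specific deletion of exon 3 of Ctnnb1 on 1 allele, which stabilises beta-catenin, and the donors were 8 months old for CP2 and 6 months for CP1. The donor of P1 also had a prostate tumour and was 14 months old. Its labels name no such deletion, and its genotype differs from that of the CP donors in more than this deletion. All 3 lines were grown as spheroids in Matrigel and then in flat culture before grafting. Each line comes from a single tumour, so line, genotype and donor age cannot be told apart. 1 of the CP2 tumours, replicate 1, is titled as CP1 but has CP2 as tissue and source. Its log2 levels over all genes tested correlated at a mean of 0.991 with the remaining CP2 tumours, 0.931 with CP1 tumours and 0.866 with P1 tumours, and it was counted as CP2.

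As background, epithelial cells hold together through E-cadherin junctions, tight junctions and desmosomes, and a small group of transcription factors keeps the genes of these structures active. Grainyhead-like factors bind the regulatory regions of such genes, Ovol factors repress genes of the mesenchymal programme such as Zeb1, and Zeb and Snail factors in turn repress E-cadherin by binding E-box motifs. Esrp1 and Esrp2 act on RNA, favouring the epithelial exons of transcripts such as those of Fgfr2 and Cd44. In the prostate, Ehf and Klf5 are known from the glandular epithelium.

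Promoter sequences were at hand for 4 of the 10 genes (RefSeq, GRCm38.p6, 250 bases before to 50 bases after the gene start, given 5′ to 3′ on the gene's own strand). RefSeq's start differs from the outer bound of the GENCODE gene given further on, and the Ovol2 window lies wholly inside the GENCODE gene. Those of Elf3, Ovol2 and Grhl3 are printed because Elf3 and Ovol2 had the largest falls of the 10 genes in CP2 against P1, while Grhl3 was higher there. Capitals mark CACCTG, the reverse complement of the Zeb and Snail E-box CAGGTG. The Elf3 window lies at chr1:135258423-135258722, the Ovol2 window at chr2:144331313-144331612 and the Grhl3 window at chr4:135573583-135573882, all on the minus strand.
Elf3: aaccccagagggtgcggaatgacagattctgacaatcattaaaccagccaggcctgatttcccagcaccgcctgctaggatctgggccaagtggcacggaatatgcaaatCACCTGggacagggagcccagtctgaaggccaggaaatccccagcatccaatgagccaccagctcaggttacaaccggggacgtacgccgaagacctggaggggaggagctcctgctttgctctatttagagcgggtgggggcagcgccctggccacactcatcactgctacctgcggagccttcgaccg
Ovol2: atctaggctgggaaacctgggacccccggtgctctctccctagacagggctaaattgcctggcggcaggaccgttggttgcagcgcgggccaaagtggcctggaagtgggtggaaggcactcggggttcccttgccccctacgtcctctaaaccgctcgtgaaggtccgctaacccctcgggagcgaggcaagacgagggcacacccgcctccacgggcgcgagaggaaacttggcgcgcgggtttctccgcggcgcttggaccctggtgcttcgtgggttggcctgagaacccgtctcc
Grhl3: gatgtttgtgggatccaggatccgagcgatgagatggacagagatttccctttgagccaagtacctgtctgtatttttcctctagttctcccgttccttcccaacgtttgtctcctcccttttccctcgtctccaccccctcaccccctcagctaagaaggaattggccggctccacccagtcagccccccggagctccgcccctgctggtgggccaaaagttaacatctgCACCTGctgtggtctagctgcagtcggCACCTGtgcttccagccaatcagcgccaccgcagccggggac
The E-box was found once in the Elf3 window, at -140 from the RefSeq start, and at -19 and 8 in the Grhl3 window, where 0 is the first base of the RefSeq gene. It was not found in the Ovol2 window or in either of the Grhl1 windows. Of 32851 promoter windows of the same length, 20.2% hold this motif on either strand. The same windows were searched on both strands for AACCNGTT (Grainyhead-like, in 2.09% of all windows), CCGTTA (Ovol, 2.76%), AGGAAG (ETS, 35.4%), ATCAAAG (TCF/LEF, 3.73%) and GGGCGTG (KLF, 8.44%). None of these 5 was found in the windows of Elf3, Ovol2 and Grhl3. A second Grhl1 start, chr12:24580469-24580768 on the plus strand, held the ETS motif at -201. None of the 6 motifs contains another, and a match is a description of the sequence only.

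Libraries held 18800912 to 20638085 counts in CP2, 25081535 to 30546426 in CP1 and 28050484 to 37180721 in P1. Levels are in CPM, read counts scaled to TMM-adjusted library size. Epithelial transcripts in the tumours were described with 5 epithelial markers, Epcam, Cdh1, Krt8, Krt18 and Krt19. Their summed level was 214 to 428 CPM in CP2 tumours, 710 to 1356 CPM in CP1 tumours and 9059 to 18487 CPM in P1 tumours, and none of them was at 0 counts in any tumour. Hoxb13, a marker of prostate identity, lay at 44.5 to 56.1 CPM in CP2, 54.5 to 59.5 CPM in CP1 and 38.9 to 72.2 CPM in P1. The 7 seminal vesicle markers summed to 3.29 to 1585 CPM in CP2, 6.33 to 27.5 CPM in CP1, and 167760, 69750 and 18043 CPM in P1 tumours 1, 2 and 3. The 6 intestinal epithelium markers summed to 6.1 to 19.6 CPM in CP2, 10.2 to 14.4 CPM in CP1 and 1296 to 2305 CPM in P1, with Cdx1 at 0 counts in all 7 CP tumours. P1 tumours thus stood apart by seminal vesicle and intestinal transcripts. The 6 urothelium markers, 5 uroplakins and Snx31, summed to 2.14 to 10.8 CPM in CP2, with Snx31 at 0 counts in 3 tumours and Upk3a in 1, to 58.4, 1351 and 547 CPM in CP1 tumours 1, 2 and 3, and to 23.5 to 48.4 CPM in P1. The 4 basal or squamous markers summed to 80.5 to 154 CPM in CP2, to 66.1, 946 and 611 CPM in CP1 tumours 1, 2 and 3, and to 196 to 384 CPM in P1. Urothelium markers and the basal sum were thus both high in CP1 tumours 2 and 3, the basal sum through Krt5, Krt15 and Trp63. Krt14, the fourth basal marker, did not follow, with 62.9 to 123 CPM in CP2, 9.19, 13.6 and 22.6 CPM in CP1 tumours 1, 2 and 3, and 164 to 345 CPM in P1. Fibroblast markers summed to 7636 to 9435 CPM in CP2, 15113 to 23548 CPM in CP1 and 4792 to 9489 CPM in P1. Collagen transcripts made up most of this sum, and its markers did not move together. In CP2 against P1, Col1a1 (log2 fold change -0.83), Col1a2 (-1.52) and Lum (-1.31) were lower. Col3a1 (1.53), Dcn (1.46) and Pdgfra (2.22) were higher there. In CP1 against P1, Col1a1 (1.08) and Col3a1 (2.42) were higher and the others were not called. Endothelial markers summed to 95.2 to 157 CPM in CP2, 126 to 168 CPM in CP1 and 121 to 217 CPM in P1, and macrophage markers to 346 to 543 CPM in CP2, 244 to 484 CPM in CP1 and 353 to 515 CPM in P1, so both sums overlapped between the lines. Among the endothelial markers, Kdr (log2 fold change -0.79 ± 0.21, adjusted p = 0.00986) and Tek (-0.87 ± 0.25, adjusted p = 0.0127) were nevertheless lower in CP2 than in P1, and also lower in CP2 than in CP1 (Kdr -0.68 ± 0.21, adjusted p = 0.0273, Tek -0.86 ± 0.25, adjusted p = 0.0184). In such bulk tumours, fewer cells of a type and less RNA per cell cannot be told apart, and the part of these other cell types in the results below was not tested.

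Of the 10 genes, 8 were lower and 1, Grhl3, was higher in CP2 than in P1 tumours. Elf3, a factor of glandular and airway epithelia, stood 97.3-fold lower, and Ovol2, Esrp2, Esrp1, Ehf and Grhl2 stood 17.6-fold to 49.1-fold lower. Grhl1 did not pass the test. Over all genes tested, 28.4% were called lower and 28.3% higher in this comparison, and the median log2 fold change was -4.43 over the 10 genes against 0.00 over all genes. In CP1 against P1, 7 of the 10 were lower and Grhl3 was again higher, where 22.4% of all genes were called lower and 22.4% higher, and the median was -2.18 over the 10 genes against -0.01 over all genes. In CP2 against CP1, 6 were lower and 1, Klf5, was higher, where 21.9% of all genes were called lower and 21.3% higher, and the median was -1.70 over the 10 genes against -0.01 over all genes. The comparisons of CP2 and of CP1 with P1 share the P1 tumours and are given side by side. Calls are at an adjusted p below 0.05 in edgeR's quasi-likelihood test, adjusted over all genes tested. In a test against a 2-fold change, 7 genes were lower and 1 higher in CP2 than in P1 (11.9% and 8.07% of all genes), 5 lower and 1 higher in CP1 than in P1 (8.6% and 6.5%), and 3 lower and 0 higher in CP2 than in CP1 (5.41% and 4.86%). Without P1 tumours 1 and 2, the counts were 8 lower and 1 higher in CP2 than in P1 (25.1% and 24.6% of all genes) and 5 lower and 1 higher in CP1 than in P1 (20.2% and 19.5%), with the single P1 tumour left assumed to vary like the tumours of the other lines.

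**Figure D1:**
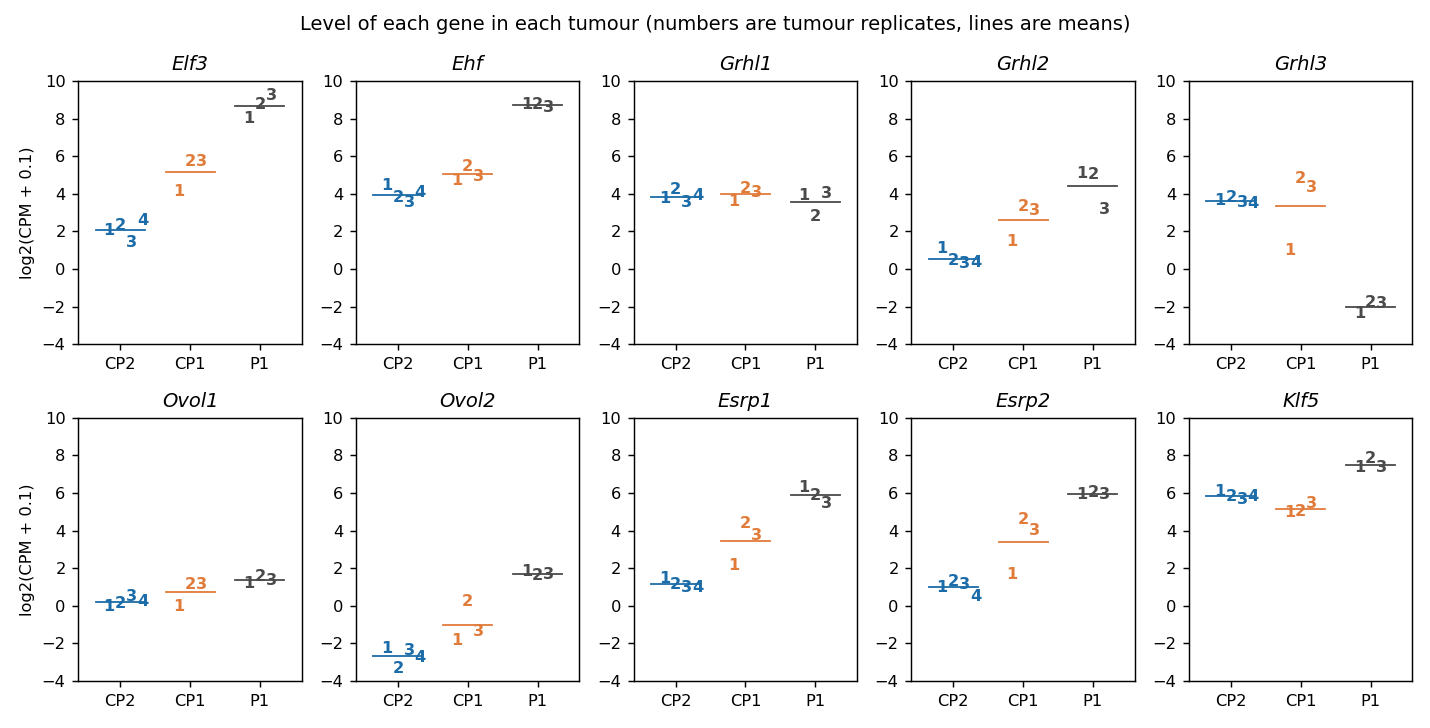
Level of each of the 10 genes in each tumour, as log2(CPM + 0.1) on the vertical axis, with 1 panel per gene, the lines CP2 (n = 4), CP1 (n = 3) and P1 (n = 3) from left to right, numbers for the tumour replicates and a bar for the mean. P1 tumours are the highest for Elf3, Ehf, Ovol1, Ovol2, Esrp1, Esrp2 and Klf5, Grhl3 is near the bottom of its panel in P1, and CP1 tumour 1 lies below CP1 tumours 2 and 3 in several panels.

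**Figure D2:**
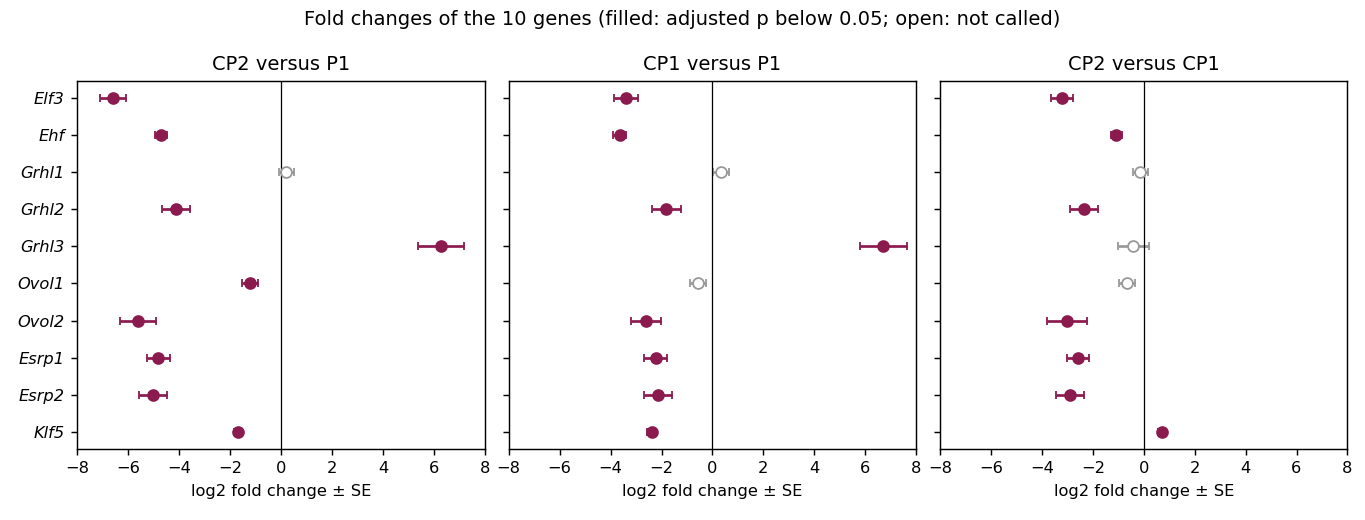
Log2 fold change with its SE (horizontal axis) for each of the 10 genes in CP2 versus P1, CP1 versus P1 and CP2 versus CP1, with filled points for genes called at an adjusted p below 0.05 and open points for the others. In the comparison of CP2 with P1, 8 filled points lie left of 0 and Grhl3 lies right of it at 6.28.

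Elf3 (ENSMUSG00000003051, chr1:135253575-135258568, minus strand, GRCm38) had 4.06, 4.91, 2.51 and 5.96 CPM in the 4 CP2 tumours, 17.1, 51.7 and 52.1 CPM in the 3 CP1 tumours, and 256, 428 and 590 CPM in the 3 P1 tumours. The 3 lines did not overlap, and CP1 lay between the others, with its tumour 1 well below its tumours 2 and 3. Elf3 fell by 6.61 ± 0.50 on the log2 scale in CP2 against P1 (SE, adjusted p = 4.23e-06) and by 3.40 ± 0.48 in CP1 against P1 (adjusted p = 2.90e-04). It was also lower in CP2 than in CP1, by 9.24-fold (log2 fold change -3.21 ± 0.44, adjusted p = 3.78e-04). Within P1, Elf3 was highest in tumour 3, which had the lowest seminal vesicle marker sum and the highest epithelial marker sum.

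Ehf (ENSMUSG00000012350, chr2:103263433-103303278, minus strand), the second of these epithelial ETS factors, had 21.7, 13.7, 11.5 and 16.8 CPM in CP2 tumours, 26, 43.9 and 30.5 CPM in CP1 tumours, and 438, 435 and 382 CPM in P1 tumours. It varied little within P1 (418 ± 31.6 CPM, SD, n = 3), and the lines again did not overlap. Its log2 fold change was -4.72 ± 0.25 in CP2 against P1 (26.3-fold lower, adjusted p = 6.04e-07) and -3.64 ± 0.26 in CP1 against P1 (12.5-fold lower, adjusted p = 5.00e-06). Between the CP lines the gap was smaller, with Ehf 2.1-fold lower in CP2 (log2 fold change -1.07 ± 0.22, adjusted p = 0.00374). Of the summed level of Elf3 and Ehf per kilobase of exons, Elf3 made up 40.5 ± 7.97% in CP2, 72.7 ± 9.58% in CP1 and 70.1 ± 10.1% in P1 (SD, n = 4, 3 and 3).

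The 3 Grainyhead-like genes went separate ways. Grhl1 (ENSMUSG00000020656, chr12:24572283-24617391, plus strand), which acts in the skin barrier, had 13.2, 18.6, 11.5 and 14.7 CPM in CP2, 11.8, 19.5 and 16.4 CPM in CP1, and 15, 6.74 and 16.1 CPM in P1. The lines overlapped, and Grhl1 passed the test in no comparison. Its log2 fold changes were 0.20 ± 0.30 in CP2 against P1 (adjusted p = 0.592), 0.34 ± 0.32 in CP1 against P1 (adjusted p = 0.428) and -0.13 ± 0.30 in CP2 against CP1 (adjusted p = 0.74), and their signs turned under alternatives.

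Grhl2 (ENSMUSG00000022286, chr15:37233036-37363569, plus strand), a direct activator of Cdh1 in mouse epithelia, had 2.06, 1.28, 1.14 and 1.16 CPM in CP2, 2.61, 10.1 and 8.47 CPM in CP1, and 33.5, 32 and 8.98 CPM in P1. All CP2 tumours lay below all CP1 tumours, while P1 tumour 3 lay within the CP1 values. Grhl2 was 17.6-fold lower in CP2 than in P1 (log2 fold change -4.14 ± 0.56, adjusted p = 1.68e-04). Without P1 tumours 1 and 2 that value was -2.70 ± 0.58 (adjusted p = 0.00632, the highest over the 17 settings). In CP1 against P1 its log2 fold change was -1.81 ± 0.56 (adjusted p = 0.0228). That call was lost without P1 tumour 1 (-1.55, adjusted p = 0.0658), without P1 tumour 2 (-1.60, adjusted p = 0.0674) and without both (-0.37, adjusted p = 0.683). Over the 17 alternative settings it ran from -3.24 to -0.37, with adjusted p from 0.00272 to 0.683. Of 8613 exonic bases, Grhl2 shares 169 with Gm16136 on the other strand, and the strand setting of the counting is not given. Gm16136 had 0.502 to 1.03 CPM in CP2, 2.3, 19.6 and 9.44 CPM in CP1, and 47.7, 71.8 and 14.1 CPM in P1, so the partner was high and low in the same lines, and reads from the shared bases cannot be told apart.

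Grhl3 (ENSMUSG00000037188, chr4:135541888-135573630, minus strand) is known for the skin barrier, for closure of the neural tube and for the terminal maturation of urothelium in mice. It had 12.3, 13.9, 11.6 and 11.3 CPM in CP2 tumours, 1.91, 27.7 and 19.8 CPM in CP1 tumours, and 0.0924, 0.187 and 0.183 CPM in P1 tumours. These P1 values rest on 3, 6 and 5 reads, against 239 to 284 reads in each CP2 tumour and 54, 852 and 488 reads in the CP1 tumours. Grhl3 was thus near the lower end of detection in P1 and far above it in all 7 CP tumours. Its log2 fold change was 6.28 ± 0.91 in CP2 against P1 (adjusted p = 2.47e-04) and 6.71 ± 0.93 in CP1 against P1 (adjusted p = 2.66e-04), which is 78-fold and 104-fold, both resting on the few P1 reads. The CP1 value depended on tumours 2 and 3: it was 6.10 without CP1 tumour 2, and 3.60 ± 0.33 without both (adjusted p = 1.48e-04, from 1.93e-17 to 0.0206 over the 17 settings).

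Expressed as a share of the 3 Grainyhead-like genes per kilobase of exons, Grhl3 made up 61.5 ± 3.08% in CP2, 51.3 ± 25.5% in CP1 and 1.16 ± 0.586% in P1 (SD, n = 4, 3 and 3). Grhl2 made up 2.3 ± 0.745% in CP2, 8.89 ± 0.845% in CP1 and 53 ± 24.7% in P1. The share of Grhl1 was 36.2 ± 3.44% in CP2, 39.8 ± 24.8% in CP1 and 45.9 ± 24.5% in P1. The summed level of the family was 6.39 to 8.5 CPM per kb in CP2, 3.12, 14.6 and 11 CPM per kb in CP1, and 4.02 to 6.63 CPM per kb in P1, so the CP1 tumours spanned the values of both other lines while the leading member differed between CP2 and P1. In P1 tumour 3, where Grhl2 was low, Grhl1 took 72.4% of the family.

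**Figure D3:**
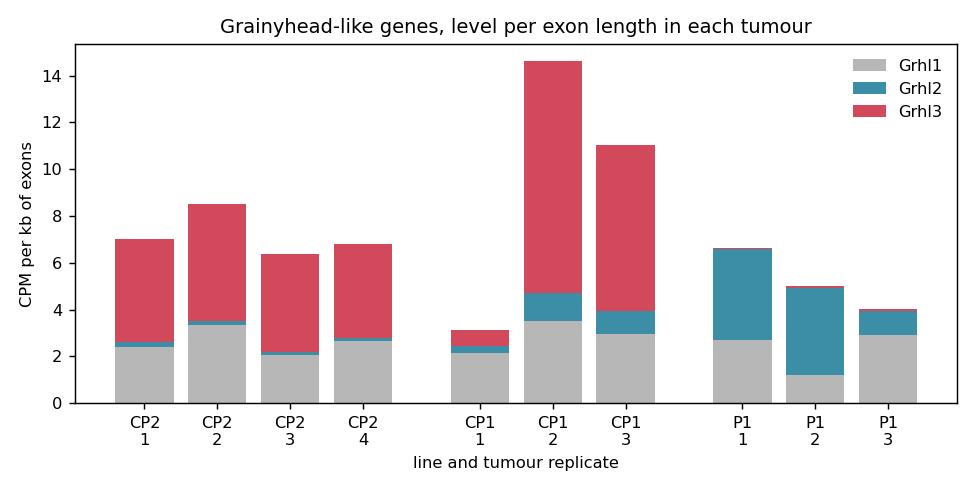
Level of Grhl1, Grhl2 and Grhl3 per kilobase of exons (CPM per kb, vertical axis), stacked for each tumour, with CP2, CP1 and P1 tumours from left to right. Grhl3 fills 58.8% to 65.3% of the bar in CP2 tumours and at most 1.63% in P1 tumours, where Grhl2 and Grhl1 fill it.

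Ovol1 (ENSMUSG00000024922, chr19:5549136-5560646, minus strand) is a zinc finger repressor with a part in epidermal and germ cell differentiation. It had 0.874, 0.982, 1.28 and 1.07 CPM in CP2, 0.883, 2.05 and 2.11 CPM in CP1, and 2.13, 2.81 and 2.48 CPM in P1, on 17 to 90 reads per tumour. It was 2.34-fold lower in CP2 than in P1 without overlap (log2 fold change -1.23 ± 0.31, adjusted p = 0.00664). Its log2 fold change was -0.56 ± 0.32 in CP1 against P1 (adjusted p = 0.189), although no CP1 value reached the lowest P1 value, and -0.67 ± 0.31 in CP2 against CP1 (adjusted p = 0.11). Of 3488 exonic bases, Ovol1 shares 690 with Gm31166 and 76 with AC126029.1, both on the other strand. Neither was among the counted gene IDs, so their reads may have been counted as Ovol1. Elf3 (162 bases), Esrp1 (127) and Ovol2 (359) also share exonic bases with genes on the other strand.

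Ovol2 (ENSMUSG00000037279, chr2:144305175-144332146, minus strand), which represses mesenchymal genes in mouse mammary and skin epithelia, was the least abundant of the 10 genes per length in CP2 and CP1. CP2 tumours held 2, 0, 2 and 1 reads, CP1 tumours 5, 33 and 7 reads, and P1 tumours 113, 96 and 84 reads. In CPM these are 0.103, 0, 0.0913 and 0.0465 in CP2, 0.177, 1.07 and 0.284 in CP1, and 3.48, 2.99 and 3.07 in P1, where the count of 0 in 19431936 allows up to 0.147 CPM (3 counts, counting error only). The lines did not overlap, although CP2 lay close to 0. The log2 fold change was -5.62 ± 0.70 in CP2 against P1 (adjusted p = 9.47e-05), -2.60 ± 0.58 in CP1 against P1 (adjusted p = 0.00447) and -3.01 ± 0.78 in CP2 against CP1 (adjusted p = 0.0111). CP1 tumour 2 held most of the CP1 reads: without it the value was -3.77 in CP1 against P1 and -1.84 in CP2 against CP1. Of the summed level of both Ovol genes per kilobase, Ovol2 made up 8.38 ± 6.83% in CP2, 29.8 ± 14.7% in CP1 and 68 ± 4.67% in P1 (SD, n = 4, 3 and 3).

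Both splicing factors were lower in the CP lines. Esrp1 (ENSMUSG00000040728, chr4:11331933-11386783, minus strand) had 2.62, 2.11, 1.87 and 1.86 CPM in CP2, 4.31, 20.7 and 13.3 CPM in CP1, and 76.7, 58.7 and 44 CPM in P1. Esrp2 (ENSMUSG00000084128, chr8:106130319-106136974, minus strand), its partner with overlapping targets, had 1.85, 2.36, 2.1 and 1.3 CPM in CP2, 3.04, 23.6 and 16.1 CPM in CP1, and 60.9, 65.8 and 59.9 CPM in P1. For both genes all 3 lines were apart, and CP1 tumour 1 lay nearer to CP2 than to CP1 tumours 2 and 3. Esrp1 fell by 4.82 ± 0.46 on the log2 scale in CP2 against P1 (28.2-fold, adjusted p = 1.82e-05) and by 2.23 ± 0.45 in CP1 against P1 (4.68-fold, adjusted p = 0.00266). Esrp2 fell by 5.03 ± 0.56 in CP2 against P1 (32.7-fold, adjusted p = 4.75e-05) and by 2.13 ± 0.54 in CP1 against P1 (4.36-fold, adjusted p = 0.00899). The Esrp2 call in CP1 was lost without P1 tumours 1 and 2 (-2.10, adjusted p = 0.0624, from 6.35e-05 to 0.067 over the 17 settings). Per kilobase, Esrp1 made up 43.8 ± 6.58% of both Esrp genes in CP2, 41.1 ± 7.24% in CP1 and 39.3 ± 6.53% in P1 (SD, n = 4, 3 and 3), and the ranges of this share overlapped. The summed level of both genes was 0.596 to 0.878 CPM per kb in CP2, 1.38 to 8.71 CPM per kb in CP1 and 20.8 to 26.2 CPM per kb in P1. Exons of Esrp2 share 219 bases with Nfatc3 on the other strand. Nfatc3 had 134 to 151 CPM in CP2, 78.8 to 87.5 CPM in CP1 and 67.4 to 82.2 CPM in P1. It was highest in CP2, where Esrp2 was lowest, and its CP1 and P1 values overlapped. Esrp2 also shares 119 exonic bases with 1810019D21Rik, which had 0.274 to 0.589 CPM in CP2, 1.34, 7.86 and 2.88 CPM in CP1, and 5.11, 9.2 and 9.71 CPM in P1, lowest in CP2 as for Esrp2, with CP1 and P1 overlapping.

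Klf5 (ENSMUSG00000005148, chr14:99298691-99315036, plus strand), a factor of proliferating and basal epithelial cells, had 68.2, 56.1, 50.5 and 55.9 CPM in CP2, 31.1, 31.9 and 42.7 CPM in CP1, and 166, 225 and 162 CPM in P1. Of the 10 genes, Klf5 alone had all its CP1 values below all its CP2 values, and in both CP lines it stayed well above 0. Klf5 was 3.2-fold lower in CP2 than in P1 (log2 fold change -1.68 ± 0.16, adjusted p = 1.67e-05) and 5.24-fold lower in CP1 than in P1 (-2.39 ± 0.18, adjusted p = 6.24e-06). It was 1.64-fold higher in CP2 than in CP1 (0.71 ± 0.16, adjusted p = 0.00612), a value that did not exceed 2-fold in a test against that size.

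The lower levels in CP2 than in CP1 depended on which CP1 tumours were counted. Grhl2 was 5.02-fold lower (log2 fold change -2.33 ± 0.55, adjusted p = 0.00702), Esrp1 6.04-fold lower (-2.59 ± 0.44, adjusted p = 0.00124) and Esrp2 7.48-fold lower (-2.90 ± 0.54, adjusted p = 0.00193). CP1 tumours 2 and 3, in which 6 of 6 urothelium markers were higher than in CP1 tumour 1, also had higher levels of all 10 genes than CP1 tumour 1, by little for Klf5 in tumour 2. Without them 2 of the 10 genes were lower in CP2 and 2 were higher, where 11% of all genes were called lower and 11.2% higher, with the single CP1 tumour left assumed to vary like the tumours of the other lines. Elf3 was then lower (-1.97, adjusted p = 0.0163) and so was Esrp1 (-1.03, adjusted p = 0.0443), which are the highest adjusted p of these genes over the 17 settings. Calls were lost for Ehf (-0.71, adjusted p = 0.106), Grhl2 (-0.90, adjusted p = 0.368), Ovol2 (-1.48, adjusted p = 0.216) and Esrp2 (-0.68, adjusted p = 0.0992), against lowest adjusted p over the 17 settings of 3.82e-05 for Ehf, 5.50e-05 for Grhl2, 0.00199 for Ovol2 and 6.52e-08 for Esrp2. Grhl3, at -0.42 ± 0.61 in CP2 against CP1 with all tumours (adjusted p = 0.599), was 0.18 without CP1 tumour 2 and turned to 2.68 ± 0.33 without tumours 2 and 3 (adjusted p = 0.0012, from 0.0012 to 1 over the 17 settings). In CP1 against P1 the same step widened the gap, to -4.63 for Elf3, -3.24 for Grhl2, -4.13 for Ovol2, -3.79 for Esrp1 and -4.35 for Esrp2, and 8 of the 10 genes were then lower and 1 higher, where 14.9% of all genes were lower and 15.2% higher.

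**Figure D4:**
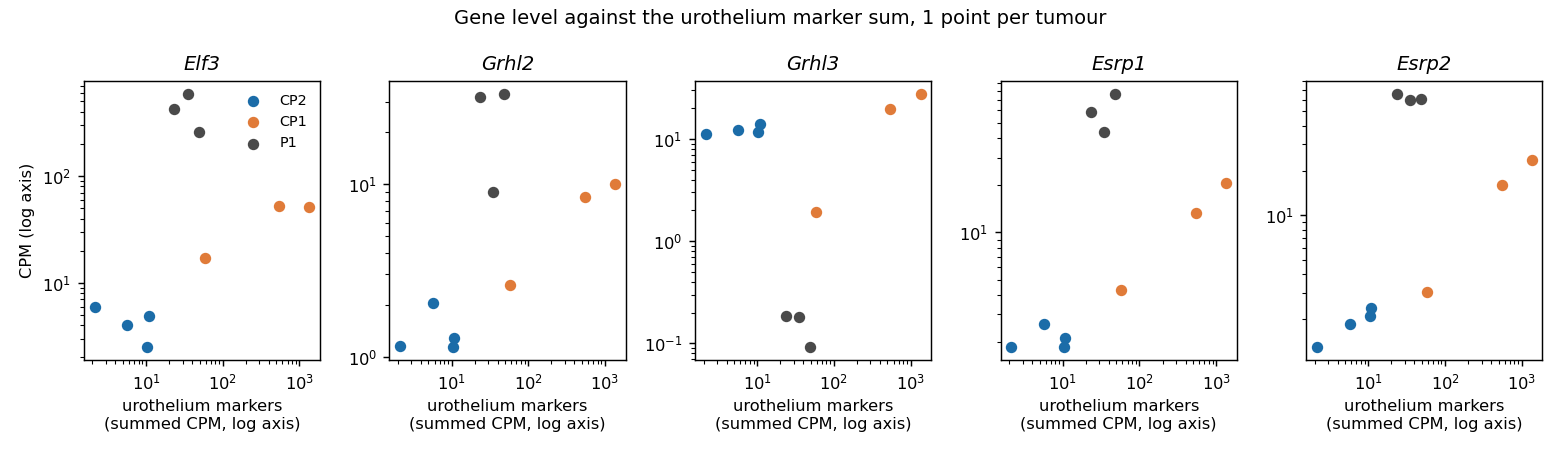
Level of Elf3, Grhl2, Grhl3, Esrp1 and Esrp2 (CPM, log vertical axis, 1 panel each) against the summed level of 6 urothelium markers (CPM, log horizontal axis), 1 point per tumour, coloured by line. CP1 tumours 2 and 3 stand at the right, at 1351 and 547 CPM of urothelium markers, and above CP1 tumour 1 in all 5 panels.

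Compared per length, the 10 genes were ordered differently in the lines. In CP2 Klf5 led with 11.1 ± 1.43 CPM per kb, then Grhl3 with 4.4 ± 0.424, and Ehf (2.85 ± 0.792), Grhl1 (2.62 ± 0.544) and Elf3 (1.97 ± 0.657) followed with overlapping values. In CP1 Elf3 led with 18.2 ± 9.08 CPM per kb, and every neighbour in the order overlapped with the next, down to Ovol2 at 0.242 ± 0.231 CPM per kb. In P1 Elf3 led with 192 ± 75.5 CPM per kb, before Ehf with 75 ± 5.66, Klf5 with 35.5 ± 6.78, Esrp2 with 14.3 ± 0.725 and Esrp1 with 9.48 ± 2.59, each apart from the next in all 3 tumours. Grhl2 (2.88 ± 1.6) overlapped with Grhl1 (2.28 ± 0.926) and Grhl1 with Ovol2 (1.51 ± 0.124) in P1. Ovol1 followed, apart from Ovol2, with 0.709 ± 0.0977 CPM per kb, and Grhl3 came last with 0.0552 ± 0.0191 CPM per kb.

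Set against E-cadherin transcript in the same tumour, the 10 genes did not share a single ratio. Cdh1 itself, the gene of E-cadherin, had 25.1 ± 7.93 CPM in CP2, 62.6 ± 38.3 CPM in CP1 and 1414 ± 125 CPM in P1 (SD, n = 4, 3 and 3), and its log2 fold change was -5.82 ± 0.45 in CP2 against P1 (adjusted p = 5.19e-06) and -4.50 ± 0.48 in CP1 against P1 (adjusted p = 5.34e-05). Relative to Cdh1, the log2 ratio of Klf5 was 1.25 ± 0.28 in CP2, -0.63 ± 0.99 in CP1 and -2.95 ± 0.32 in P1. That of Grhl1 was -0.76 ± 0.45 in CP2, -1.79 ± 0.65 in CP1 and -6.90 ± 0.68 in P1. Both ratios were higher in every CP tumour than in every P1 tumour, and so were those of Ehf, Grhl2, Grhl3, Ovol1, Esrp1 and Esrp2. The Ovol2 ratio was higher in every CP1 tumour than in every P1 tumour. It was not formed for CP2, which had a tumour without Ovol2 reads. Elf3 differed, with -2.54 ± 0.53 in CP2, -0.59 ± 0.37 in CP1 and -1.81 ± 0.49 in P1, the CP2 and P1 tumours overlapping. For Esrp2 the ratio was -3.70 ± 0.58 in CP2, -2.36 ± 0.60 in CP1 and -4.50 ± 0.16 in P1. For Esrp1 it was -3.53 ± 0.25 in CP2, -2.35 ± 0.17 in CP1 and -4.60 ± 0.53 in P1, and for Grhl2 -4.14 ± 0.20 in CP2, -3.15 ± 0.25 in CP1 and -6.05 ± 1.20 in P1. These ratios are descriptions of mixed tissue and were not tested.

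Over all genes tested, 28.4% were called lower and 28.3% higher in CP2 than in P1. These shares were 22.4% and 22.4% in CP1 against P1, and 21.9% and 21.3% in CP2 against CP1. Beside them, the genes around the 10 moved as follows. Of 30 epithelial adhesion, protease and keratin genes, 30 were lower and 0 were higher in CP2 than in P1 (median log2 fold change -4.85 against 0.00 over all genes). The 3 furthest by the naming rule were Krt7 (-7.92 ± 0.89, adjusted p = 5.02e-05), a simple epithelial keratin, the tight junction gene Tjp3 (-6.59 ± 0.50, adjusted p = 4.63e-06) and Krt8 (-6.47 ± 0.76, adjusted p = 6.65e-05). Krt18, the partner keratin of Krt8, stood at -6.15 ± 0.57 (adjusted p = 1.40e-05) and the adhesion gene Epcam at -6.36 ± 0.33 (adjusted p = 6.03e-07). In CP1 against P1, 26 of the 30 were lower and 0 higher (median -3.33), with Epcam at -5.67 ± 0.36 (adjusted p = 2.69e-06) and the tricellular junction gene Lsr at -4.84 ± 0.33 (adjusted p = 3.77e-06). In CP2 against CP1, 22 were lower and 1, the hemidesmosome gene Itgb4, was higher (1.56 ± 0.37, adjusted p = 0.00721), with a median of -1.49. Without CP1 tumours 2 and 3, which left a single CP1 tumour, fewer of the 30 were lower in CP2. Cdh1 was lower in CP2 than in CP1 (-1.32 ± 0.39, adjusted p = 0.0214) with overlapping values.

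Among 14 mesenchymal counterparts, 10 were higher and 2 lower in CP2 than in P1 (median 2.02), 7 higher and 3 lower in CP1 than in P1 (median 1.00), and 5 higher and 2 lower in CP2 than in CP1 (median 0.28), where 28.3%, 22.4% and 21.3% of all genes were higher in these comparisons and 28.4%, 22.4% and 21.9% lower. Zeb1, a repressor of Cdh1 and target of Ovol2, had 170 ± 16.2 CPM in CP2, 71.6 ± 9.56 CPM in CP1 and 33 ± 8.33 CPM in P1 (SD, n = 4, 3 and 3). Its log2 fold change was 2.36 ± 0.17 in CP2 against P1 (adjusted p = 3.69e-06), 1.11 ± 0.17 in CP1 against P1 (adjusted p = 5.51e-04) and 1.25 ± 0.17 in CP2 against CP1 (adjusted p = 2.96e-04). The related Zeb2 was higher by 2.69 ± 0.22 in CP2 against P1 (adjusted p = 7.32e-06) and by 2.51 ± 0.23 in CP1 against P1 (adjusted p = 1.93e-05). Zeb1 thus lay highest in CP2, the line in which Ovol2, Elf3, Ehf, Grhl2 and both Esrp genes lay lowest. Klf5 lay lowest in CP1 and Grhl3 in P1, and Ovol1 and Grhl1 did not pass the test between CP2 and CP1. Nor did Zeb2 (0.18 ± 0.20, adjusted p = 0.498). Fibroblasts also carry Zeb1 and Zeb2 transcripts. Twist1, a transcription factor of mesoderm, split the CP lines: it was higher in CP2 than in P1 (4.29 ± 0.16, adjusted p = 1.51e-07) and lower in CP1 than in P1 (-1.31 ± 0.16, adjusted p = 1.09e-04). Snai2, a Snail-family repressor, was higher in CP2 than in CP1 (2.76 ± 0.34, adjusted p = 1.95e-04), whereas Snai1 was lower there (-1.11 ± 0.25, adjusted p = 0.00597). Vim, the gene of vimentin, was higher by 1.25 ± 0.18 in CP2 against P1 (adjusted p = 2.23e-04) and by 1.51 ± 0.19 in CP1 against P1 (adjusted p = 1.34e-04). Other genes of this list went the other way. Fn1 (-1.05 ± 0.25) and Cdh11 (-1.18 ± 0.24) were lower in CP2 than in P1. Cdh11 (-1.56 ± 0.27) and Prrx1 (-1.25 ± 0.26) were lower in CP1 than in P1, and Fn1 (-1.53 ± 0.25) in CP2 than in CP1.

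**Figure D5:**
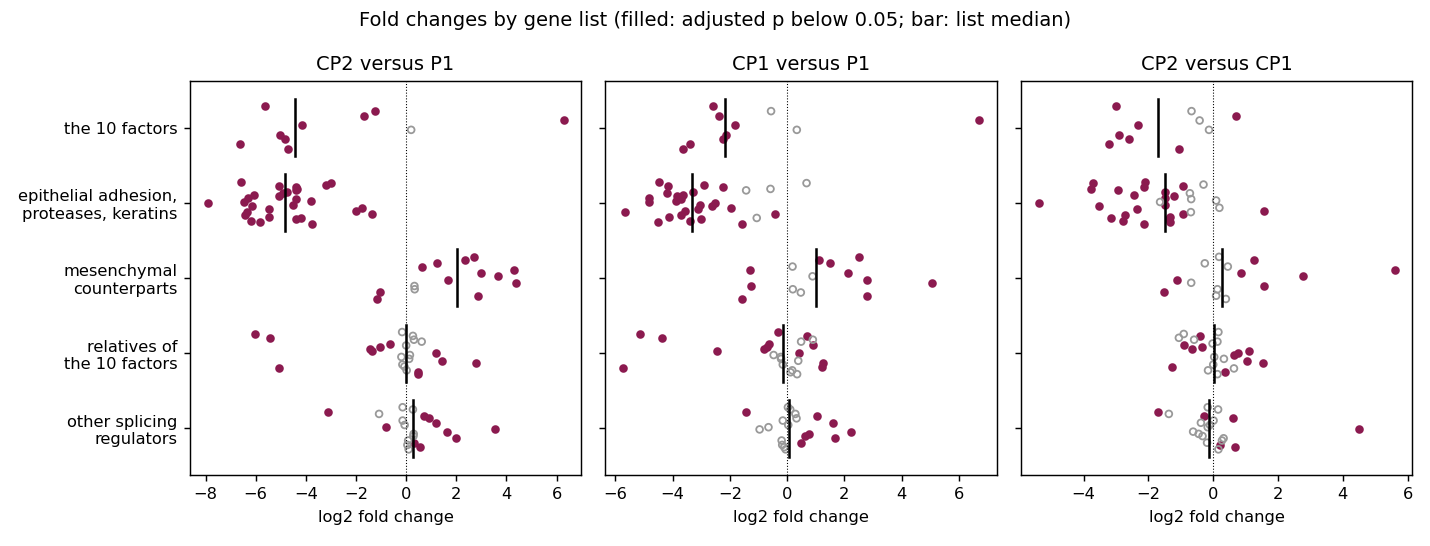
Log2 fold change (horizontal axis) of each gene in the 10 factors and the 4 lists around them, in CP2 versus P1, CP1 versus P1 and CP2 versus CP1, with filled points for called genes, open points for the others and a bar at each list's median. The epithelial list lies entirely left of 0 in CP2 versus P1, with its median at -4.85, while relatives of the factors and other splicing regulators centre at 0.00 and 0.28.

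Relatives of the 10 factors went both ways. Of 23 further ETS, Grainyhead-related and Krüppel-like genes, 5 were higher and 7 lower in CP2 than in P1 (median 0.00), 5 higher and 8 lower in CP1 than in P1 (median -0.15), and 6 higher and 5 lower in CP2 than in CP1 (median 0.03). Over all genes tested, 28.3% were higher and 28.4% lower in CP2 than in P1, 22.4% higher and 22.4% lower in CP1 than in P1, and 21.3% higher and 21.9% lower in CP2 than in CP1. Those that fell furthest in CP2 against P1 are themselves epithelial: Tfcp2l1, a Grainyhead-related factor of kidney and gland ducts (-6.03 ± 0.37, adjusted p = 1.32e-06), the ETS factor Spdef of secretory cells (-5.43 ± 0.83, adjusted p = 3.49e-04) and Elf5 of mammary luminal progenitors (-5.09 ± 1.00, adjusted p = 0.00164). The same 3 genes fell furthest in CP1 against P1, with Elf5 at -5.73 ± 1.16 (adjusted p = 0.00262), Tfcp2l1 at -5.13 ± 0.39 (adjusted p = 7.22e-06) and Spdef at -4.37 ± 0.85 (adjusted p = 0.00203). Elf5 was uneven within P1, with 108, 161 and 14.5 CPM in tumours 1, 2 and 3, all above the CP tumours. Etv4, an ETS factor induced by growth factor signalling, was higher in CP2 than in P1 (2.80 ± 0.17, adjusted p = 1.18e-06), in CP1 than in P1 (1.25 ± 0.17, adjusted p = 2.06e-04) and in CP2 than in CP1 (1.55 ± 0.16, adjusted p = 6.41e-05).

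Of 20 other splicing regulators, 8 were higher and 2 lower in CP2 than in P1 (median 0.28), 7 higher and 1 lower in CP1 than in P1 (median 0.08), and 4 higher and 2 lower in CP2 than in CP1 (median -0.13), beside the same shares of all genes. Rbm47, an RNA-binding protein of epithelia, was lower in all 3 comparisons, as Esrp1 and Esrp2 were: it had 14 ± 0.797 CPM in CP2, 45.2 ± 3.07 CPM in CP1 and 121 ± 16.3 CPM in P1 (SD, n = 4, 3 and 3), with log2 fold changes of -3.11 ± 0.11 in CP2 against P1 (adjusted p = 1.50e-07), -1.43 ± 0.11 in CP1 against P1 (adjusted p = 8.01e-06) and -1.69 ± 0.10 in CP2 against CP1 (adjusted p = 4.90e-06). Unlike the Esrp genes, Rbm47 varied little among the CP1 tumours. Nova1, known as a neuronal splicing regulator, was higher in CP2 than in P1 (3.55 ± 0.39, adjusted p = 4.30e-05) and than in CP1 (4.51 ± 0.42, adjusted p = 3.68e-05). Mbnl3, a muscleblind-like regulator, was higher in CP2 than in P1 (1.61 ± 0.27, adjusted p = 6.75e-04) and in CP1 than in P1 (2.23 ± 0.29, adjusted p = 1.72e-04).

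Genes whose pattern over the 10 tumours lay nearest to each factor were found among 11965 candidates (11966 for Ovol1 and Ovol2) by the mean absolute difference of centred log2(CPM + 1). Nearest to Elf3 were Gpa33 (0.313), Ckmt1 (0.352) and Tmem45b (0.384), and nearest to Ehf were Slc44a3 (0.164), Atp9a (0.165) and Myo1d (0.179). Rasef (0.196), Pof1b (0.238) and Ildr1 (0.244) lay nearest to Grhl2, and Adh7 (0.456), Fendrr (0.485) and Apoc4 (0.499) to Grhl3, which thus had the least close neighbours of the 10. The neighbours of Esrp1 were Map3k9 (0.215), Auts2 (0.218) and Pof1b (0.237), and those of Esrp2 were Auts2 (0.243), Eps8l2 (0.261) and Esrp1 (0.267). Pof1b was thus near both Grhl2 and Esrp1. Klf5 lay nearest to Cnnm2 (0.175), Chmp2b (0.181) and Nfkbiz (0.181), and Grhl1 to Trim62 (0.176), Abhd12 (0.177) and Snx8 (0.212). Ovol1 and Ovol2 were too low for the measure to separate patterns, since 1 CPM was added to all values, and their nearest genes were Cab39l (0.096) and Amt (0.119). Differences are in log2 units.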

How the data were processed

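RNA from 10 tumours (CP2 4, CP1 3, P1 3) was sequenced, 1 library each. The deposited files give raw counts per Ensembl gene ID, as whole numbers without normalisation. Per the submitters' processing notes, the authors used HTSeq 0.6.0, Bowtie2 2.2.6.0 and TopHat2 2.1.0, further DESeq2 1.14.1, FastQC 0.11.4 and R 3.2.3, and the build GRCm38.p3. Their order, parameters, annotation and strand setting are not given in the sources used here. Of 47069 gene IDs, 46574 matched GENCODE M21 (GRCm38), which gave symbols, positions and merged exon lengths.

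Counts were tested with edgeR 4.0.16 (R 4.3.3, limma 3.58.1): filterByExpr (minimum count 10, minimum total 15), TMM factors, and 1 quasi-likelihood fit over all 10 tumours with a mean per line. Calls took p-values adjusted over 17644 genes by Benjamini-Hochberg, below 0.05. SEs were derived from the fold change and its F statistic. CPM are given as mean ± SD, per kilobase of exons between genes. The number of tumour pairs with identical counts was 0. The labels do not tie libraries to separate animals, so the p-values reflect the spread among these samples only, which may partly be technical. The procedure was tested on simulated data.

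Alternatives were RLE scaling, DESeq2 1.42.0, no filter, a test against a 2-fold change, only the 2 lines compared, each tumour left out, P1 tumours 1 and 2 left out (most seminal vesicle transcripts) and CP1 tumours 2 and 3 left out (most uroplakin transcripts).

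The 10 members, the lists, the motifs and these pairs of tumours were chosen with earlier results of these data known, and no count over a list is independent support. Named genes are the members, Cdh1, Epcam, Krt8, Krt18, Zeb1, Zeb2 and Vim, up to 3 called genes per list and direction by size of change with a mean of at least 5 CPM in a line, of which the text gives some, and the 3 nearest genes per member with a mean of at least 5 CPM. Part of the genotypes and of the marker results is not reported here.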

Additional observations from a re-analysis of the deposited data

Results flagged for a closer look

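Grhl2 was set apart by 1 tumour within CP2. CP2 tumour 1 had 2.06 CPM, against 1.28, 1.14 and 1.16 CPM in CP2 tumours 2, 3 and 4, and its gap to the nearest of them was 0.852 of the whole range, above the critical value for a group of 4. The value rests on 40 reads in CP2 tumour 1 and on 25 or 26 reads in the others. This is the tumour whose title names CP1, and it still lay below the lowest CP1 value of 2.61 CPM. Such a gap was looked for in the 10 genes of CP2, the only line with 4 tumours, and chance sets apart about 1 in 20 such groups.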

How the results depend on the processing

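Of 509 member values recomputed under 17 settings, 489 stayed on their side of the threshold, 16 lost the call, 3 gained it and 1 gained it with the opposite sign. Among the 489, 8 values of Grhl1, Grhl3 and Ovol1 that were called in neither fit changed sign. Leaving out CP1 tumours 2 and 3 turned the sign of Grhl3 in CP2 against CP1, from -0.42, which was not called, to 2.68. The epithelial genes Pkp3 and Marveld2, lower in CP2 with all tumours, then stood at 0.01 and 0.35. Fewer of the 10 genes were lower there, with a single CP1 tumour left. In the test against a 2-fold change the counts in CP2 against CP1 were 0 higher and 3 lower. The cause of these changes was not tested. With each tumour left out in turn, the count lower was 6 to 8 in CP2 against CP1, 6 to 7 in CP1 against P1 and 8 to 8 in CP2 against P1, and the count higher was 1 to 1 in all 3. Shares of all genes are not given for these fits or those of only the 2 lines, so the counts show only how steady the calls were. Without CP1 tumour 1, Grhl3 (-0.95, adjusted p = 0.00415) and Ovol1 (-0.98, adjusted p = 0.0108) were called lower in CP2 than in CP1. Counts in CP1 against P1 were 5 lower in the test against a 2-fold change and without P1 tumours 1 and 2, and 6 with only the 2 lines. Ovol1 in CP2 against P1 did not pass the test against a 2-fold change (adjusted p = 0.339, the highest over the settings, against a lowest of 9.84e-04), and Ovol1 was lower in CP1 than in P1 without CP1 tumours 2 and 3 (-1.48, adjusted p = 0.0192, up to 1 over the settings). RLE scaling moved the median of all genes by -0.022 to -0.010. In the test against a 2-fold change, the epithelial list in CP2 against CP1 had 0 higher and 12 lower (reported 1 and 22). Relatives had 2 higher and 4 lower in CP2 against P1 (reported 5 and 7), 0 and 4 in CP1 against P1 (5 and 8), and 1 and 0 in CP2 against CP1 (6 and 5). Other splicing regulators had 3 higher and 1 lower in CP2 against P1 (8 and 2), 3 higher in CP1 against P1 (7), and 1 and 1 in CP2 against CP1 (4 and 2). Mesenchymal genes lower were 0 in all 3 comparisons (2, 3 and 2), and 3 were higher in CP2 against CP1 (5). Under the other settings, relatives higher in CP1 than in P1 came down to 3, relatives lower in CP2 than in CP1 to 3, and the epithelial list in CP2 against CP1 had up to 3 higher and down to 9 lower. Other splicing regulators lower ranged over 1 to 4 in CP2 against P1, 1 to 3 in CP1 against P1 and 1 to 5 in CP2 against CP1, with 2 higher at least there, and mesenchymal genes lower over 1 to 2 in CP2 against P1 and 2 to 4 in CP2 against CP1. No paired analysis was possible because the labels give no replicate number that pairs tumours across lines. Ovol2 was filtered out with only CP2 and CP1 in the fit and gave no value there. Low counts limit Grhl3 in P1 and Ovol2 in CP2.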
